A study of Mus musculus with 12 samples.

Results

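The transcription factors described here are Irx1, Irx2 and Pou3f4, which are expressed in alpha cells of the mouse islet, Hhex, which is expressed in delta cells, and Isl1 and Etv1. They were taken as the 6 rows of the count table whose Ensembl identifiers map to these symbols, of 37991 rows in all, and all 6 passed the filter on low counts that left 15961 genes. The label of alpha and delta cell factors could not be checked cell by cell, because whole islets were sequenced. Isl1 in particular is known in all endocrine cell types of the islet, so its level is not read as that of alpha or delta cells.

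Pancreatic islets hold insulin-secreting β-cells, glucagon-secreting alpha cells, somatostatin-secreting delta cells and rarer endocrine cells, and each type keeps its identity through transcription factors that bind DNA and switch sets of genes on or off. Irx1 and Irx2 are Iroquois homeodomain proteins, and Pou3f4, also called Brn4, is a POU homeodomain protein of the developing and adult alpha cell. Hhex is a homeodomain repressor required for delta cells, and it is also made by endothelial cells. Isl1 is a LIM homeodomain protein that works with the cofactor Ldb1 in islet cells, and Etv1 is an ETS-domain activator of the PEA3 group.

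Islet RNA came from male C57BL/6 mice at 2 weeks of age (2w) and 12 weeks of age (12w), either Tg7 mice, which overexpress miR-7 specifically in β-cells, or wild-type (Wt) littermates. The paper describes Tg7 mice as normoglycaemic at 2w and hyperglycaemic at 12w, so at 12w genotype and hyperglycaemia cannot be told apart. There were 3 libraries in each of the 4 groups, made from islets pooled over several animals, so p-values measure the spread between pools. The sources used here do not name the promoter that drives the transgene. Depth ranged from 11610697 to 17515758 counts per library, and the insulin transcripts Ins1 and Ins2 took 10.1% to 15.4% of counts in 2w Wt, 1.84% to 4.09% in 2w Tg7, 14.8% to 30% in 12w Wt and 8.08% to 8.24% in 12w Tg7 libraries. Defining markers of alpha cells (Gcg) and delta cells (Sst, Rbp4) were counted in all 4 groups. One 2w Tg7 library, replicate 1, had the highest summed level of 3 B lymphocyte markers, 18.6 CPM (counts scaled to a common library size with TMM factors), the highest summed level of 6 acinar markers, 13.93 CPM, and the highest level of the macrophage gene Lyz2, 62.85 CPM against 1.86 to 14.65 CPM in the other libraries, and members' calls that change without it are named below.

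In mm9 coordinates, Irx1 (ENSMUSG00000060969) lies at chr13:72095680-72101171 on the minus strand and Irx2 (ENSMUSG00000001504) at chr13:72766245-72771644 on the plus strand, 665 kb apart. Isl1 (ENSMUSG00000042258) lies on the same chromosome at chr13:117088478-117099896, minus strand. Pou3f4 (ENSMUSG00000056854) lies at chrX:108009729-108010910, Hhex (ENSMUSG00000024986) at chr19:37507377-37515218 and Etv1 (ENSMUSG00000004151) at chr12:39505967-39594802, all on the plus strand. Among the rows of the count table that were matched to the annotation, no other gene lies within 5000 bases of any of the 6. Genes outside these rows were not searched, so reads shared with such a gene could not be checked.

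Since the members moved together with age, the promoter windows of the factor with the largest fall (Pou3f4), of the delta cell factor (Hhex) and of the factor whose Tg7 call at 12w lay close to the threshold (Isl1, held in 8 of 22 settings) are shown, from 250 bases before to 50 bases after the start, 300 bases each. They are RefSeq sequences of build GRCm38.p6, at chrX:110814129-110814428 (plus strand), chr19:37434591-37434890 (plus strand) and chr13:116309639-116309938 (minus strand). Capitals mark TAAT on either strand, the core bound by many homeodomain proteins.
Pou3f4: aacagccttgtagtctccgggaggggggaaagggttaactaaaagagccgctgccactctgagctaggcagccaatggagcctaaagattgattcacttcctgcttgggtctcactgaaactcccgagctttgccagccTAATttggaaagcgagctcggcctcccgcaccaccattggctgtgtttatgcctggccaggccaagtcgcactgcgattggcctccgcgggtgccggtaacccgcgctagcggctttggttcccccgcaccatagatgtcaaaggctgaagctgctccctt
Hhex: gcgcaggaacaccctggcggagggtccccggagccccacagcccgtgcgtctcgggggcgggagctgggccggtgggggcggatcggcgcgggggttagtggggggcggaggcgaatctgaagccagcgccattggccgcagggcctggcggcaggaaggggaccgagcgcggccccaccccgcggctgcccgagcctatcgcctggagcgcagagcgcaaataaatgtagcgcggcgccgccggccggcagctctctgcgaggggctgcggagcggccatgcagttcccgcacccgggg
Isl1: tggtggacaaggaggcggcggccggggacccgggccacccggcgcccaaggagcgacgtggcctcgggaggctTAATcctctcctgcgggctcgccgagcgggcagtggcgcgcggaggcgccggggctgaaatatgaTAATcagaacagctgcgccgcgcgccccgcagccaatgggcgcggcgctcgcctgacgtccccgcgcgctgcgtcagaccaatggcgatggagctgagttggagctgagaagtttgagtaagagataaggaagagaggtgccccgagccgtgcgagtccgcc

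The table held windows for 5 members, with 2 for Etv1; Irx1 was not matched. TAAT was found 1 time in the Pou3f4 window, 2 times in that of Isl1, 2 and 5 times in those of Etv1, and 0 times in those of Hhex and Irx2, while 58.0% of all 32841 windows held it. The windows of Hhex and Isl1 each held 37 CpG dinucleotides, more than 94.4% of all windows, and that of Irx2 held 25. The Pou3f4 window held 15 CpG dinucleotides and those of Etv1 12 and 3, against a median of 7 over all windows. The 5 members thus did not share TAAT or one CpG density in these windows.

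Levels between genes were compared per length, as RPKM, which divides the CPM by the length of the gene's exons. In 2w Wt islets Isl1 was at 76.2 ± 4.02 RPKM (SD, n = 3), the highest of the 6 factors. Irx1 at 14.7 ± 0.818 and Etv1 at 14.3 ± 1.08 RPKM did not differ beyond their spread, and Hhex was at 5.08 ± 0.304 RPKM. Pou3f4 was at 2.15 ± 0.293 RPKM on a gene model that holds little beyond its coding sequence, and Irx2 was lowest at 0.82 ± 0.11 RPKM. In 12w Wt islets the order was Isl1 (53.7 ± 10.8), Etv1 (9.97 ± 1.65), Irx1 (7.15 ± 0.484), Hhex (3.05 ± 0.792), Irx2 (0.429 ± 0.145) and Pou3f4 (0.402 ± 0.336 RPKM), and the last of these did not differ from Irx2 beyond their spread. Irx2 rested on 14 to 67 counts per library and Pou3f4 at 12w on 2 to 14, which limits the precision of both.

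**Figure D1:**
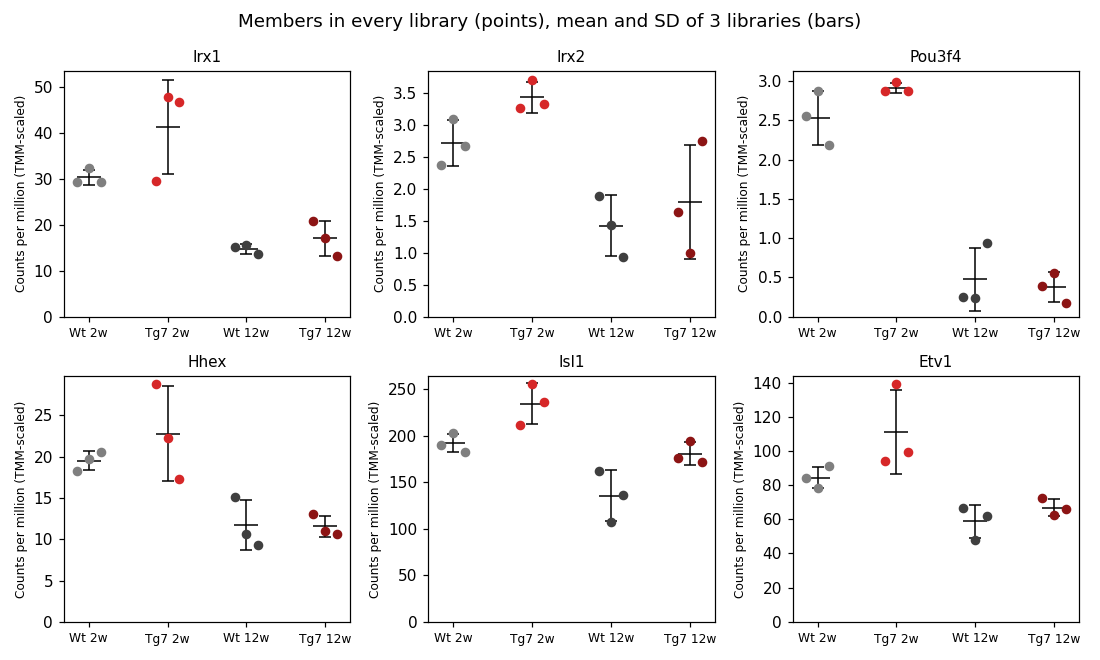
Level of each of the 6 factors in every library, in CPM after TMM scaling (y axis from 0), by group (x axis); points are libraries and bars are the mean and SD of 3 libraries. For every factor, all 12w points of a genotype lie below all 2w points of that genotype.

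To ask how the factors differ between the ages, 12w was compared with 2w within each genotype. In Tg7 mice, normoglycaemic at 2w and hyperglycaemic at 12w, age and hyperglycaemia cannot be told apart. All 6 factors were lower at 12w in both genotypes, and Irx1, Pou3f4, Hhex and Etv1 fell in both. For Irx1 and Pou3f4 this held in both genotypes in every setting that tested them, and for Hhex and Etv1 it did so in Tg7 alone. In Wt islets 5 of 6 members were called lower, where a call is an adjusted p below 0.05 in edgeR's quasi-likelihood test with Benjamini-Hochberg adjustment over all 15961 genes. Of all genes tested in Wt, 15.8% were called and 7.91% were called lower. In Tg7 islets 4 of 6 members were called lower, against 13% of all genes called and 6.01% called lower. The median log2 fold change of the members was -0.857 in Wt and -0.956 in Tg7, against 0.0446 and -0.0127 over all genes tested. The groups did not overlap for any of the 6 members in either genotype, with every 12w library below every 2w library; this held for 15.6% of all genes in Wt and 19.2% in Tg7. In bulk islets, fewer cells of a type and less RNA per cell cannot be told apart.

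Of the alpha cell factors, Irx1 was at 29.4, 32.3 and 29.3 CPM in the 2w Wt libraries and at 15.1, 15.5 and 13.6 CPM in the 12w Wt libraries. In Tg7 islets it was at 29.6, 47.7 and 46.8 CPM at 2w and at 20.9, 17.0 and 13.2 CPM at 12w. The groups were well apart, with 2w Tg7 replicate 1 at the Wt level. Irx1 fell 2.06-fold in Wt (log2 fold change -1.04, SE 0.20, edgeR adjusted p = 0.00326) and 2.43-fold in Tg7 (-1.28, SE 0.20, adjusted p = 8.29e-04).

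Irx2 moved in the same direction but was not called. It was at 2.37, 3.09 and 2.66 CPM in 2w Wt and at 1.89, 1.43 and 0.933 CPM in 12w Wt libraries, a log2 fold change of -0.96 (SE 0.41, edgeR adjusted p = 0.127). In Tg7 it was at 3.26, 3.70 and 3.33 CPM at 2w and at 1.64, 0.996 and 2.75 CPM at 12w, a log2 fold change of -0.93 (SE 0.39, edgeR adjusted p = 0.134). Its 12w Tg7 libraries spread widely, and replicate 3 came near the 2w libraries.

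Pou3f4 had the largest change of the 6. It was at 2.55, 2.87 and 2.18 CPM (39 to 43 counts) in 2w Wt libraries and at 0.252, 0.238 and 0.933 CPM (2, 3 and 14 counts) in 12w Wt libraries. In Tg7 it was at 2.88, 2.99 and 2.88 CPM at 2w and at 0.395, 0.553 and 0.172 CPM at 12w. A single 12w Wt library, replicate 4, held most of the 12w Wt counts. Pou3f4 fell 4.95-fold in Wt (log2 fold change -2.31, SE 0.53, edgeR adjusted p = 0.0101) and 7.65-fold in Tg7 (-2.94, SE 0.53, adjusted p = 0.00247). Without 12w Wt replicate 4 the Wt value was -3.34, with edgeR adjusted p = 0.00151.

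Hhex, the delta cell factor, was at 18.3, 19.7 and 20.6 CPM in 2w Wt and at 15.1, 10.6 and 9.33 CPM in 12w Wt libraries. In Tg7 it was at 28.76, 22.28 and 17.34 CPM at 2w and at 13.03, 11.01 and 10.64 CPM at 12w. Hhex fell 1.68-fold in Wt (log2 fold change -0.75, SE 0.21, edgeR adjusted p = 0.0282) and 1.97-fold in Tg7 (-0.98, SE 0.21, adjusted p = 0.00711). The Wt call was lost without 2w Wt replicate 2 or 3 or 12w Wt replicate 2 or 4, with edgeR adjusted p of 0.0570 to 0.0983.

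Isl1 was at 190.8, 203.2 and 183.1 CPM in 2w Wt and at 162.3, 107.7 and 136.9 CPM in 12w Wt libraries, and fell 1.42-fold (log2 fold change -0.51, SE 0.14, edgeR adjusted p = 0.0281). The call was lost without any of the 2w Wt libraries or without 12w Wt replicate 2, with edgeR adjusted p of 0.0606 to 0.105. In Tg7 islets Isl1 went from 212.1, 256.3 and 236.3 CPM to 176.1, 194.7 and 171.6 CPM, and its log2 fold change of -0.38 (SE 0.14, edgeR adjusted p = 0.1) was not called. It was called without 12w Wt replicate 1 or 2, libraries that enter this value only through the shared spread and scaling, with edgeR adjusted p of 0.0441 to 0.0460.

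Etv1 was at 84.0, 78.3 and 91.0 CPM in 2w Wt and at 66.7, 47.9 and 61.7 CPM in 12w Wt libraries, and fell 1.44-fold (log2 fold change -0.53, SE 0.16, edgeR adjusted p = 0.0413). In Tg7 it was at 94.3, 139.3 and 99.4 CPM at 2w and at 72.4, 62.4 and 65.9 CPM at 12w, and fell 1.66-fold (-0.73, SE 0.16, edgeR adjusted p = 0.0084). The Wt call was lost without any 2w Wt library, 12w Wt replicate 2 or 12w Tg7 replicate 2 or 3, with edgeR adjusted p of 0.0600 to 0.148. Without Wt replicates in turn, the number of members called in Wt was 3 (2w replicate 1) and 2 (2w replicates 2 and 3 and 12w replicate 2).

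**Figure D2:**
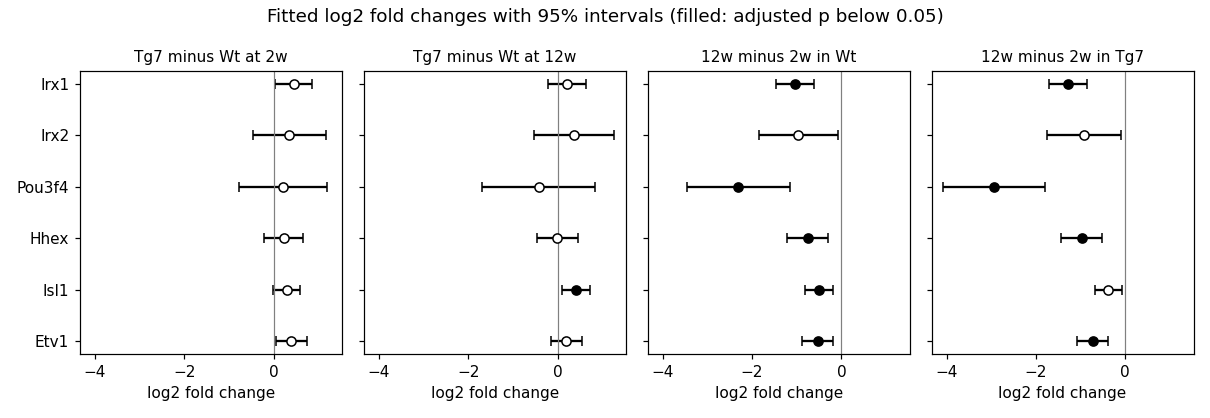
Fitted log2 fold change of each factor (x axis) in the Tg7 against Wt comparisons at 2w and 12w and in the 12w against 2w comparisons within Wt and Tg7; bars are 95% intervals and filled points have an edgeR adjusted p below 0.05. The age values all lie below 0, from -0.38 for Isl1 in Tg7 to -2.94 for Pou3f4 in Tg7, while the Tg7 values lie between -0.42 and 0.45.

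Most alpha cell markers moved with the members. Of 8 alpha cell markers, 5 were called lower and 1 higher in each genotype. The 1 called higher was Gc (log2 fold change 1.15 in Wt and 1.67 in Tg7), and Ttr was at 0.06 and -0.26 and was not called. The glucagon gene Gcg was at -0.32 in Wt and -0.80 in Tg7 and was not called (edgeR adjusted p = 0.470 and 0.0811). Of 5 delta cell markers 1 was called lower in Wt and 2 in Tg7, with median log2 fold changes of -0.543 and -0.646. Ffar4, a fatty acid receptor, fell in both genotypes (-1.19 and -0.88, edgeR adjusted p = 0.00784 and 0.0358), and Rbp4 was at -0.56 in Wt and fell in Tg7 (-0.65, adjusted p = 0.0675 and 0.0444). Ghsr, the ghrelin receptor, was at -0.54 and -1.82 and Spock3 at -0.38 and -0.47, and neither was called. Sst, which encodes somatostatin, was the marker of the 5 above 0, at 0.75 and 0.29, and was not called (edgeR adjusted p = 0.0780 and 0.535). Lower levels at 12w were not particular to alpha and delta cell genes. Of 3 PP and epsilon cell markers, 1 was called lower in Wt and 2 in Tg7. Of 8 transcription factors shared by islet endocrine cells (pan-endocrine), 3 were called lower in each genotype and 1 was called higher in Tg7.

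Markers of other cell types moved over the same ages. All 6 endothelial markers fell in Wt and 2 of 6 in Tg7, with summed levels of 722.5 to 964.9 CPM in 2w Wt, 320.9 to 407.1 in 12w Wt, 818.8 to 929.6 in 2w Tg7 and 648.6 to 705.4 CPM in 12w Tg7 libraries, and none was at 0. Of 6 β-cell markers, 4 rose in Wt and 3 in Tg7, with summed levels of 109900 to 179400 CPM in 2w Wt and 197600 to 481300 CPM in 12w Wt libraries. Of 5 stellate cell markers, 3 fell in Wt, and 2 fell and 1 rose in Tg7. Their part in the members' change was not tested.

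Ratios of counts within a library do not depend on scaling, and the pairs below were chosen after their values were seen. Per 1000 Gcg counts there were 0.651 to 0.861 Irx1 counts in 2w Wt and 0.343 to 0.568 in 12w Wt libraries, and 0.62 to 0.964 in 2w Tg7 and 0.483 to 0.601 in 12w Tg7 libraries, ranges that do not overlap between ages. Per 1000 Irx1 counts there were 74.4 to 89 Pou3f4 counts in 2w Wt and 15.4 to 68.6 in 12w Wt libraries, and 61.5 to 97.5 in 2w Tg7 and 13 to 32.5 in 12w Tg7 libraries. Pou3f4 was thus lower at 12w than at 2w relative to another alpha cell factor that itself fell, in both genotypes. Hhex was at 9.15 to 10.4 counts per 1000 Sst counts in 2w Wt and 3.06 to 5.01 in 12w Wt libraries, and at 9.31 to 13.4 and 4.39 to 5.48 in Tg7. Against the delta cell gene Rbp4, which encodes retinol binding protein, it was at 68.9 to 72.3 and 53.0 to 76.3 per 1000 counts in Wt, ranges that overlap, and at 70.1 to 105 and 64.8 to 66.4 in Tg7, ranges that do not. With 3 libraries against 3, an exact two-sided permutation test cannot give a p below 0.1, so no p is given for the ratios.

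**Figure D3:**
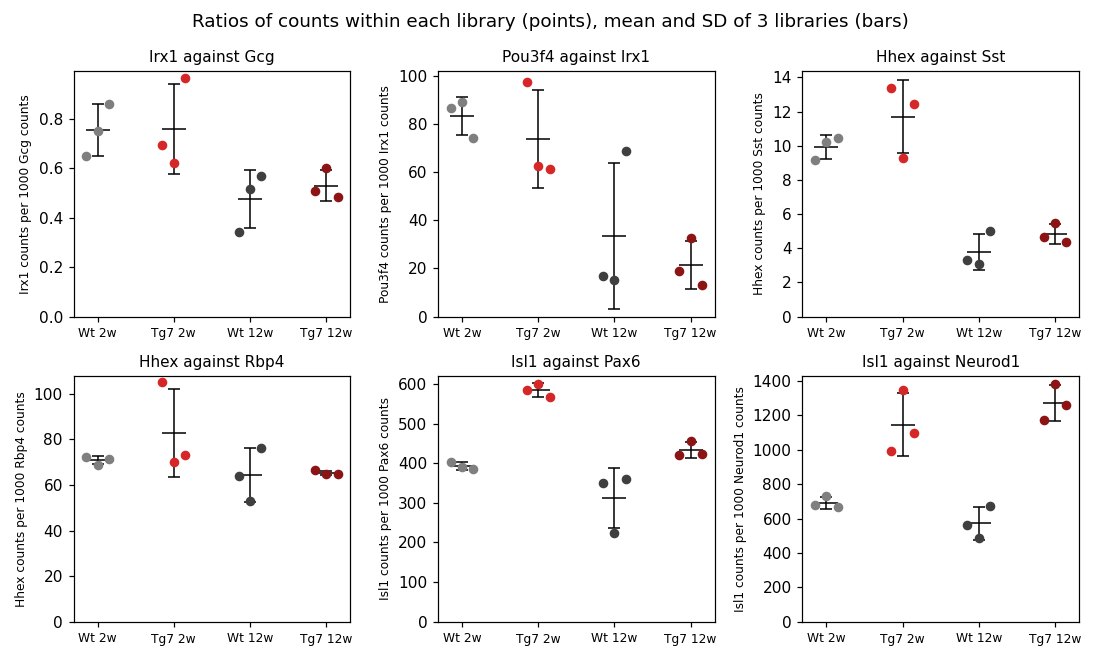
Counts of a factor per 1000 counts of another gene in the same library (y axes from 0), by group (x axis); points are libraries and bars are the mean and SD of 3 libraries. Irx1 against Gcg, Pou3f4 against Irx1 and Hhex against Sst are lower at 12w, Hhex against Rbp4 overlaps between ages in Wt, and Isl1 against Pax6 and against Neurod1, 2 of 8 pan-endocrine factors set against it, is higher in Tg7 than in Wt at each age; against Rfx6, not drawn, it is lower in Tg7 at 12w.

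To ask whether overexpression of miR-7 in β-cells goes with a change in these factors, Tg7 was compared with Wt at each age. At 2w none of the 6 members was called by edgeR (0 of 6), against 10.6% of all genes tested, and DESeq2 on all 12 libraries also called 0. Irx1 and Etv1 had an unadjusted p below 0.05 (2 of 6). All values were above 0, from 0.20 for Pou3f4 to 0.45 for Irx1 on the log2 scale, with a median of 0.314 against 0.0268 over all genes. For 4 members, Irx2, Pou3f4, Isl1 and Etv1, every Tg7 library was above every Wt library at 2w, which held for 17.8% of all genes. For the scarce Pou3f4 this was nearly a tie, with the lowest Tg7 library at 2.881 CPM and the highest Wt library at 2.873 CPM. For Irx2 these were at 3.255 and 3.094 CPM. Neither was called (edgeR adjusted p = 0.821 for Pou3f4 and 0.615 for Irx2).

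Markers also moved with genotype at 2w. Of 6 β-cell markers 5 fell in Tg7, with summed levels of 109900 to 179400 CPM in Wt and 27050 to 52070 CPM in Tg7 libraries. Of 8 alpha cell markers 1 rose (Gc, which encodes vitamin D binding protein), with a median log2 fold change of 0.413 and summed levels of 36060 to 48680 CPM in Wt and 45500 to 82950 CPM in Tg7 libraries. Of the other lists, 3 of 5 stellate cell markers, 1 of 3 PP and epsilon cell markers and 1 of 5 macrophage markers rose, and 0 of 5 delta cell and 0 of 6 endothelial markers were called. None of these markers of β-cell, alpha, delta, stellate, macrophage or endothelial cells was at 0, and their part in the members' values was not tested.

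The intervals show what these libraries allow at 2w. The 95% interval of the log2 fold change ran from 0.0347 to 0.863 for Irx1 (edgeR adjusted p = 0.152), from 0.0505 to 0.737 for Etv1 (adjusted p = 0.130) and from -0.017 to 0.593 for Isl1 (adjusted p = 0.211). For the scarcer Irx2 and Pou3f4 it ran from -0.475 to 1.16 and from -0.781 to 1.19, and for Hhex from -0.218 to 0.665. Without 2w Tg7 replicate 1, the library with the most B lymphocyte and acinar marker counts per library size and the most Lyz2, Irx1 was called higher in Tg7 (0.64, edgeR adjusted p = 0.0343) and Hhex was at 0.02 (adjusted p = 0.964).

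At 12w Isl1 was the 1 member of 6 called, against 23.6% of all genes called and 12.5% called higher. It rose 1.33-fold in Tg7 (log2 fold change 0.42, SE 0.14, 95% interval 0.109 to 0.723, edgeR adjusted p = 0.0492). Its Tg7 libraries lay at 171.6 to 194.7 CPM and its Wt libraries at 107.7 to 162.3 CPM, and this separation in the same direction was found for 20.7% of all genes. Over all settings the log2 fold change of Isl1 was 0.28 to 0.87, and with a library left out it was 0.28 to 0.54. The settings include library size alone, which shifted the median of all genes by 0.444 at 12w. The call was close to the threshold and held in 8 of 22 settings. Leaving out 1 library ended it in 9 of 12 cases, with values of 0.28 to 0.45 and edgeR adjusted p of 0.0550 to 0.169; these libraries were all 3 of 2w Wt, 2w Tg7 replicate 2, 12w Wt replicates 2 and 4 and all 3 of 12w Tg7.

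**Figure D4:**
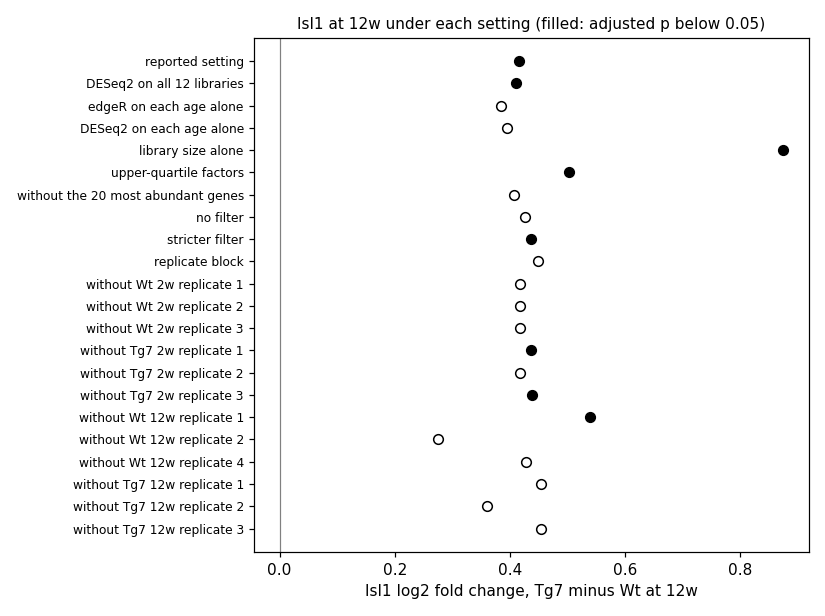
Log2 fold change of Isl1, Tg7 minus Wt at 12w (x axis), in each of 22 settings (y axis); filled points have an adjusted p below 0.05. All values lie above 0, between 0.28 and 0.87, and 8 of the 22 are filled. With a library left out the values lie between 0.28 and 0.54.

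The other members at 12w were between -0.42 for Pou3f4 and 0.37 for Irx2 and were not called. The 95% intervals were -0.22 to 0.644 for Irx1, -0.518 to 1.26 for Irx2, -1.69 to 0.841 for Pou3f4, -0.465 to 0.459 for Hhex and -0.158 to 0.536 for Etv1. The value of Pou3f4 changed sign, to 0.61, without 12w Wt replicate 4, and that of Irx2, to -0.07, without 12w Tg7 replicate 3. By library size alone, a scaling that shifted the median of all genes by 0.444 at 12w, Irx1 and Etv1 were also called higher.

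Isl1 was also set against each of 8 pan-endocrine transcription factors in the same libraries. The Isl1 count per 1000 counts of the other factor was higher in every Tg7 library than in every Wt library for 5 of 8 factors at 2w and for 4 of 8 at 12w. It was lower in every Tg7 library for 1 of 8 at each age, Myt1 at 2w and Rfx6 at 12w, and overlapped for the others, so the direction depended on the factor chosen. Per 1000 counts of Rfx6 there were 1250 to 1520 Isl1 counts in 12w Wt and 1110 to 1160 in 12w Tg7 libraries, and Rfx6 itself rose in 12w Tg7 islets (log2 fold change 0.72, edgeR adjusted p = 0.00728). Per 1000 counts of Pax6 there were 384 to 404 Isl1 counts in 2w Wt and 567 to 601 in 2w Tg7 libraries. At 12w there were 225 to 360 in Wt and 422 to 456 in Tg7 libraries. Per 1000 counts of Neurod1 the ranges were 666 to 732 and 991 to 1350 at 2w, and 484 to 675 and 1170 to 1380 at 12w. Neither of these 2 ratios overlapped between Tg7 and Wt at either age, and the pair was chosen after its values were seen. Neurod1 itself was at -0.43 at 2w, where it was not called (edgeR adjusted p = 0.0531), and fell in 12w Tg7 islets (log2 fold change -0.74, adjusted p = 0.00121). Pax6 was at -0.28 at 2w and -0.08 at 12w and was not called (edgeR adjusted p = 0.151 and 0.704). Of the 8 factors, 1 was called lower in 2w Tg7 islets, Insm1 (-0.72, edgeR adjusted p = 0.0133), and 0 were called higher.

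Markers of other cells moved with genotype at 12w too. In Tg7, 5 of 6 endothelial markers, 4 of 5 stellate cell markers and 3 of 3 tested neuronal markers rose, and 5 of 6 β-cell markers fell. Of 8 alpha cell markers 3 rose and of 5 delta cell markers 0 were called at 12w. Their part in the value of Isl1 was not tested.

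The Tg7 effect was not shown to differ between ages for any member. No member was called in the test of the difference between the 12w and 2w effects by edgeR (0 of 6, with 0 at an unadjusted p below 0.05) or by DESeq2 (0), against 1.18% of all genes tested. The 95% interval of the difference was -0.305 to 0.56 for Isl1 and -0.835 to 0.361 for Irx1 on the log2 scale, and -2.23 to 0.974 for Pou3f4.

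The microRNA that Tg7 mice overexpress in β-cells was looked for in the members' transcripts. The mature sequence of mmu-miR-7a-5p, from RefSeq, is given with its seed, bases 2 to 8, in capitals.
mmu-miR-7a-5p: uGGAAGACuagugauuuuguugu
A match to this seed, GTCTTCC on the transcript strand, was found in the longest annotated 3′ UTR of 0 of the 6 members, against 13.2% of 14406 tested protein-coding genes. These annotated 3′ UTRs (mm9) ran from 21 bases for Pou3f4 to 2446 bases for Etv1, so for Pou3f4 the search covered almost nothing.

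Relatives of the members behaved differently from them in places. Of the Iroquois genes, Irx4 and Irx6 had 0 counts in all libraries, and Irx5 had 11, 8, 0 and 11 counts in 2w Wt, 2w Tg7, 12w Wt and 12w Tg7. Irx3 rose in Tg7 at both ages (log2 fold change 1.22 at 2w and 0.93 at 12w, edgeR adjusted p = 0.0244 and 0.0396), with 1.80 ± 0.194 CPM (SD, n = 3) in 2w Wt, 4.18 ± 1.52 in 2w Tg7, 3.57 ± 0.354 in 12w Wt and 6.79 ± 1.62 CPM in 12w Tg7. Its call at 2w held with 8 of 12 libraries left out in turn and was lost without any 2w Wt library or 2w Tg7 replicate 3, with values of 0.87 to 1.29. Its call at 12w held with 5 of 12 and was lost without 2w Wt replicate 2 or 3, any 12w Wt library or 12w Tg7 replicate 1 or 3, with values as low as 0.73. Over all settings tried the calls held in 18 of 22 at 2w and 12 of 22 at 12w. Its values from 2w to 12w were 0.99 in Wt and 0.69 in Tg7 and were not called (edgeR adjusted p = 0.0506 and 0.144), while Irx1 fell. Of the POU class III genes, Pou3f1 and Pou3f2 had 0 counts throughout, and Pou3f3 was not called in any comparison.

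Etv5, a PEA3 relative of Etv1, fell in 2w Tg7 islets (log2 fold change -0.92, edgeR adjusted p = 0.0372) and rose from 2w to 12w in Tg7 (0.86, adjusted p = 0.0406), where Etv1 fell. The 2w call of Etv5 held with 5 of 12 libraries left out in turn and was lost without 2w Wt replicate 1 or 3, 2w Tg7 replicate 1 or 3 or any 12w Tg7 library. Its call with age was lost without 2w Wt replicate 3, 2w Tg7 replicate 1 or 3 or any 12w Tg7 library, with edgeR adjusted p of 0.0603 to 0.135. Over all settings tried, the 2w call held in 13 of 22 and the call with age in 14 of 21. Ldb1 and Ldb2 are cofactors that bind LIM homeodomain proteins, and the Ssbp proteins bind the Ldb cofactors. Of these, Ldb1 (0.50, edgeR adjusted p = 0.0453), Ldb2 (0.92, adjusted p = 0.0195) and Ssbp3 (0.55, adjusted p = 0.00189) rose in 12w Tg7 islets, where 12.5% of all genes were called higher. Isl1 also rose there, a call that held in 8 of 22 settings. The call of Ssbp3 held in all 22 settings, that of Ldb2 in 18 of 22 and that of Ldb1 in 11 of 22. With 1 library left out, that of Ldb2 was lost without 12w Wt replicate 1 or 12w Tg7 replicate 1, and that of Ldb1 without any 2w Wt or 12w Tg7 library, 2w Tg7 replicate 2 or 12w Wt replicate 1, with a value of 0.27 without the last. Isl2 had 0 counts in all libraries, and Ssbp2 and Ssbp4 were not called.

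The likeness of patterns was measured as the root mean square difference of centred log2 CPM over the 12 libraries, as a description, since the libraries share their depth and groups. Among the members, Isl1 and Etv1 were the closest pair (0.184), and Pou3f4 was farthest from the others (0.837 to 1.14). Among the 3 genes most like Hhex were Srpx2 (0.189) and Sept6 (0.192), and among those most like Irx1 were Aard (0.225) and Fam167b (0.235). Pou3f4 was nearest to Arntl (0.398), Irx2 to Dpysl5 (0.226), Isl1 to Zfp40 (0.148) and Etv1 to Lrrc8a (0.161).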

How the data were processed

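The authors trimmed paired-end reads with Trimmomatic, aligned them to mm9 (NCBIM37) with TopHat2 2.0.11 and counted them per gene with featureCounts, and they deposited raw counts per Ensembl gene, not normalized; the sources used here do not give the strand setting. Symbols and exon lengths came from GENCODE M1 (37205 of 37991 identifiers matched). The filter was filterByExpr (minimum count 10, minimum total 15). TMM-scaled counts entered edgeR 4.0.16 (R 4.3.3) (glmQLFit, glmQLFTest) as 4 group means without a block, since same-numbered libraries share only a number. Adjusted p-values are Benjamini-Hochberg over all 15961 genes, with a threshold of 0.05. Standard errors were derived from the log2 fold change and its F statistic. CPM and RPKM were computed with TMM-scaled library sizes, and log2 CPM with a prior count of 2. Replicates in a group differed by more than sampling noise (chi-square per gene 7.23 to 191 over 12 pairs). The pairs within 12w Wt gave 73.7, 112 and 191, and those within the other groups 7.23 to 43.1. These values used total counts without TMM factors and a mean over genes, so abundant genes and the insulin share weigh heavily in them. They do not measure the spread of the members. The 12w Wt group enters the Tg7 comparison at 12w, the age comparison in Wt and the test of the difference. Alternatives were DESeq2 1.42.0, other scalings and filters, each age alone, a replicate block and each library left out. Fits on the Wt or Tg7 libraries alone were added after seeing the data. Steps were tested on simulated data. The members, lists, named genes (all members, their families, islet factors, markers and the 3 most alike genes) and tests were chosen with earlier results of these data known. Results of some named genes are not reported here, though counts over lists include them.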

Additional observations from a re-analysis of the deposited data

Results flagged for a closer look

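No member was picked out for a closer look; groups of 3 libraries are too small to test for a single library that stands apart. Of the marker genes, 4 differed in their Tg7 effect between ages by the test of the difference itself (12w minus 2w, edgeR with Benjamini-Hochberg adjustment): Slc38a5 by 2.19 on the log2 scale (adjusted p = 0.00127), Pecam1 by 0.91 (adjusted p = 0.0496), Pdgfrb by 1.60 (adjusted p = 0.00176) and Col1a1 by 2.85 (adjusted p = 5.13e-04). In Tg7 against Wt islets, Slc38a5, an amino acid transporter counted with the alpha cell markers, was at 0.52 at 2w (not called, edgeR adjusted p = 0.0849). At 12w it was higher in Tg7 than in Wt by 2.70. From 2w to 12w Slc38a5 fell in both genotypes, with log2 fold changes of -2.81 in Wt and -0.63 in Tg7 (edgeR adjusted p = 1.18e-06 and 0.0379).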

How the results depend on the processing

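Over 600 values of single members under other settings, 558 kept their direction where called and their side of the threshold, 32 lost the call, 10 gained it and none of the called values reversed. Counts of members called moved as follows. For Tg7 against Wt at 2w the count of 0 was 1 in DESeq2 on each age alone (Isl1) and 1 by library size alone (Etv1), and 0 to 1 with a library left out. For Tg7 against Wt at 12w the count of 1 was 0 in edgeR on each age alone, 0 in DESeq2 on each age alone, 3 by library size alone, 0 without the 20 most abundant genes, 0 with no filter and 0 with the replicate block, and 0 to 1 with a library left out. For 12w against 2w in Wt the count of 5 was 2 in edgeR on the Wt libraries alone, an alternative added after seeing the data, 6 by library size alone, where Irx2 was also called (-1.38, edgeR adjusted p = 0.0214), and 2 to 5 with a library left out. With age in Tg7 the count of 4 ranged from 3 to 5. No call was lost there in a setting that tested the gene, and the 3 came with the stricter filter, which did not test Pou3f4. The difference of the Tg7 effects gave 0 in each of 20 settings. Irx1 and Pou3f4 were called lower with age in every setting that tested them, in both genotypes; Hhex and Etv1 were so in Tg7. The cause of the calls lost in the other comparisons was not tested.

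Same-numbered libraries were not treated as pairs: the correlations of their deviations were -0.0214, -0.167 and -0.0343 at 2w and -0.0894 and -0.0112 at 12w. With the replicate block, Etv1 lost its call in Wt (edgeR adjusted p = 0.0508), which made the count there 4, and Pou3f4 in Wt moved from -2.31 to -3.47. Replicate number 4 occurs only in 12w Wt, so the block fits that library exactly and takes it out of the 12w Wt mean. Leaving out 12w Wt replicate 4 gave a Wt value of -3.34 for Pou3f4. Library size alone shifted the median of all genes by 0.166 at 2w, 0.444 at 12w, -0.393 with age in Wt and -0.118 with age in Tg7. Pou3f4 did not pass the stricter filter (50 counts in 3 libraries) or the filter at 12w alone, so those fits give no value for it. Low counts of Irx2 and Pou3f4 limit what can be seen of them; a group with 1 library removed takes its spread from the other groups as well.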
